A study of Mus musculus with 9 samples.

Results

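The genes described here are 7 that encode the egg coat of the mouse oocyte and the egg proteins that meet the sperm: Zp1, Zp2, Zp3, Astl, Izumo1r, Cd9 and Cd81. They were taken by their symbols from the 22526 genes of the deposited expression table, and all 7 were found. The libraries came from metaphase II oocytes of ICR mice, an outbred strain, and were made by Smart-seq2, which copies polyadenylated RNA into full-length cDNA and amplifies it. There were 3 groups of 3 libraries: oocytes labelled young, oocytes labelled aged, and oocytes of a group supplemented with nicotinamide mononucleotide (NMN), from which cells make the coenzyme NAD. The ages of the young and aged mice, the age and dose of the NMN group, and the number of oocytes and mice behind each library are not given in the sources used here. The labels do not say whether replicates came from separate mice, so a p-value here reflects the variation among the libraries at hand, possibly technical.

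The zona pellucida is a coat of glycoprotein filaments that the growing oocyte secretes around itself. ZP2 and ZP3 build the filaments and ZP1 cross-links them. Sperm bind this coat, and after the first sperm has fused, cortical granules release ovastacin, the protease encoded by Astl, which cleaves ZP2 so that further sperm no longer bind. On the egg membrane, JUNO, encoded by Izumo1r, is the receptor for IZUMO1 on sperm, and the tetraspanins CD9 and CD81 organise the membrane where sperm and egg fuse. The mRNAs of these genes accumulate while the oocyte grows, and transcription is largely silent at metaphase II.

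Zona genes are known targets of FIGLA, an oocyte transcription factor that binds an E-box, CANNTG, together with a partner of the TCF3 and TCF12 family. RefSeq promoters on GRCm38.p6 were matched for 5 of the 7 genes (Zp3, Astl, Izumo1r, Cd9 and Cd81). Zp3 is shown because it was the gene that passed the test below, and Astl because its levels are described beside it. Each is the 250 bases before an annotated start on the plus strand, and capitals mark CANNTG, which reads the same on both strands.
Zp3, chr5:135979855-135980104: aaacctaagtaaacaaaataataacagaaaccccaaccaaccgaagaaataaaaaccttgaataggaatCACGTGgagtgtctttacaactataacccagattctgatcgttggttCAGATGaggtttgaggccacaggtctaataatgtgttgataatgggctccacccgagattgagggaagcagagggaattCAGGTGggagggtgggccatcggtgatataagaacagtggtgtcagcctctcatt
Astl, second start, chr2:127341386-127341635: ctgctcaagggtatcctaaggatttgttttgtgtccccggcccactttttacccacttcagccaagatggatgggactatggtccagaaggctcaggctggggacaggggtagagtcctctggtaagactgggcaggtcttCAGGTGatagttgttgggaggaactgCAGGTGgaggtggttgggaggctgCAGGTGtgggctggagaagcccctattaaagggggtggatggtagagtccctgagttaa
The Zp3 window held 3 E-boxes. The first base of CACGTG lies 181 bases before the start, that of CAGATG 134 bases and that of CAGGTG 55 bases. The Astl window held CAGGTG 3 times, at 109, 83 and 59 bases before the start, and the window before the first annotated Astl start held 0. The same window held 3 E-boxes in Cd9 and 1 each in Cd81 and Izumo1r, none of them a zona gene, so the count does not set Zp3 apart. Of 32851 RefSeq promoter windows of this length, 66.2% held at least 1 E-box and 12.2% held at least 3. A match describes the letters only.

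All 9 libraries had an oocyte profile: each of 10 oocyte markers reached 1 FPKM (fragments relative to transcript length and library size), with summed levels of 10653 to 13092 in young, 13963 to 14569 in aged and 12605 to 14058 in NMN libraries. Depth, estimated from the steps between low values, was 16.28 to 19.25 M (mega) reads per library. Of 18 markers of cumulus and granulosa cells, the follicle cells that surround the oocyte, 16 had a value and 6 reached 1 FPKM in any library. Their summed level was 6.03 to 7.99 in young, 4.06 to 22.2 in aged and 3.52 to 4.70 in NMN libraries, and the 22.2 was aged replicate 2. Ptx3, a protein of the expanded cumulus matrix, stood at 6.08 scaled FPKM there, as did Inha at 3.02, Fst at 2.21 and Tnfaip6 at 1.03, and these 4 genes are listed at 0 everywhere else. Inhba was at 3.79 there and at most 0.119 elsewhere. Cyp19a1 went the other way, at 2.89 in aged replicate 2 and 3.41 and 3.67 in aged replicates 1 and 3. It was at 5.37 to 6.37 in young and 2.93 to 4.03 in NMN libraries, and made up most of the sums of these 2 groups. Of 15 sperm markers 9 had a value and 4 reached 1 FPKM (Tmem81, Zp3r, Spam1 and Prm2), with sums of 21.0 to 37.1 in young, 18.7 to 31.5 in aged and 14.6 to 18.4 in NMN libraries. Oviduct epithelium (1 of 5, Sec14l3) and blood or immune markers (1 of 6, Cd68) summed to at most 2.98 and 2.41.

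Per length of transcript, Astl and Zp3 were the most abundant of the genes described, with means over the 9 libraries of 202 and 185 scaled FPKM (FPKM divided by a trimmed-mean factor of the library). They ranked 201st and 224th of the 9168 genes tested. Zp1 followed with 115, Zp2 with 61.4 and Izumo1r with 36.0, ranks 391, 766 and 1297. Cd9 was lower, at 8.13 and rank 3690. Cd81 stayed under 1 FPKM in all 9 libraries and was not tested. The other 6 genes were above 1 FPKM in every library. The estimated reads behind each value were 5361 to 12711 for Astl, 2342 to 7029 for Zp3, 2002 to 8857 for Zp1, 1087 to 7154 for Zp2, 655 to 1125 for Izumo1r, 70 to 326 for Cd9 and 1 to 23 for Cd81.

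**Figure D1:**
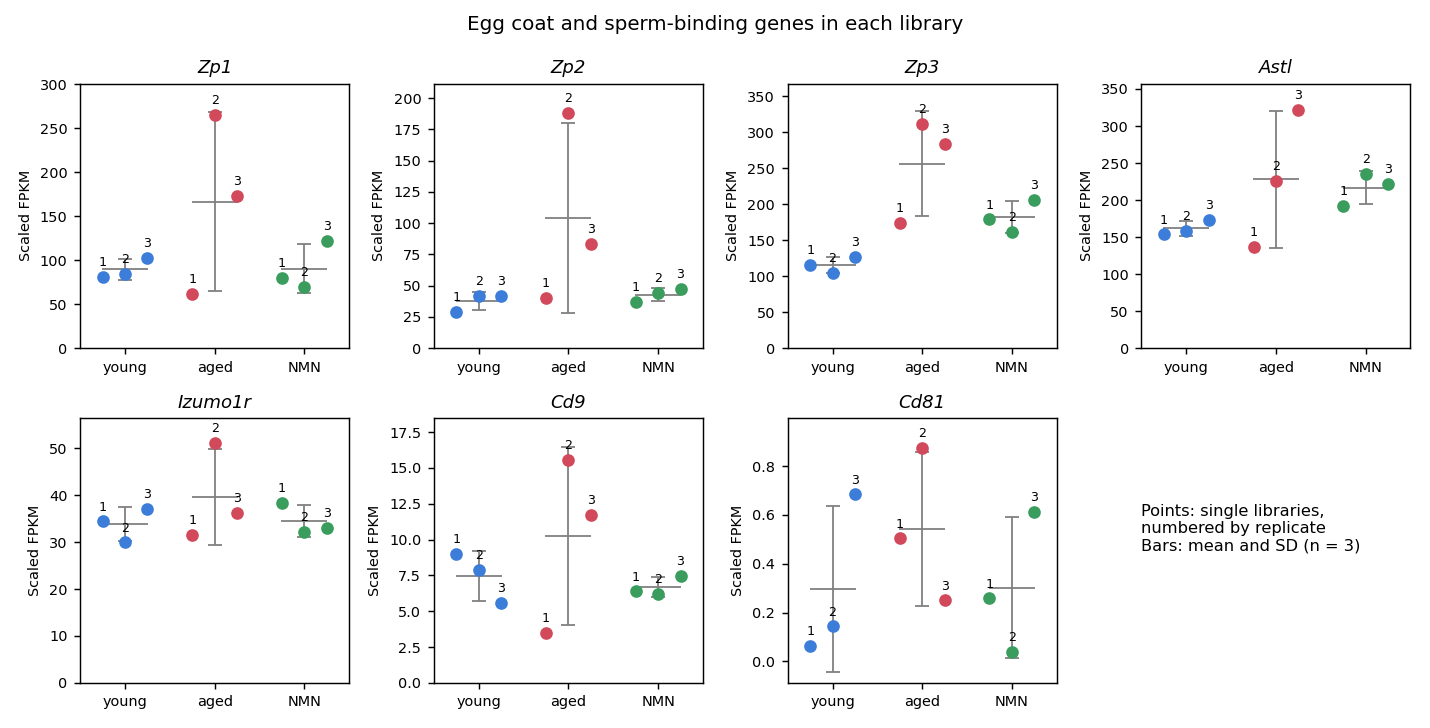
Level of each of the 7 genes in scaled FPKM (vertical axis) in the young, aged and NMN groups. Points are single libraries numbered by replicate, and bars are the mean and SD of 3 libraries. For Zp3 the lowest aged library, at 174, lies above the highest young library, at 127, whereas for Zp1, Astl and Cd9 the aged points reach both above and below the young ones.

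The scaled FPKM of Zp3 were higher in aged than in young libraries, with a call close to the threshold. Zp3 encodes the filament protein long studied as the primary sperm-binding component of the mouse zona. It was at 116, 104 and 127 scaled FPKM in young replicates 1, 2 and 3, at 174, 312 and 284 in the aged ones and at 179, 162 and 206 in the NMN ones. The groups young and aged did not overlap, and the aged mean of 256 ± 72.6 (SD, n = 3) was 2.21 times the young mean of 116 ± 11.4 (SD, n = 3). Zp3 rose by 1.10 ± 0.23 (SE) on the log2(FPKM + 1) scale, with a 95% interval of 0.60 to 1.60 and an adjusted p of 0.0392 (limma, Benjamini-Hochberg over 9168 genes). Of all genes tested, 2.17% were called in this comparison (199, of which 121 were higher and 78 lower in aged oocytes). Groups of 3 did not overlap for 23.9% of genes. FPKM are relative to the rest of the library, so more Zp3 mRNA per oocyte and less of other RNA cannot be told apart. The libraries were made from polyadenylated RNA, and neither tail length nor decay of these mRNAs was measured.

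The call on Zp3 was close to the threshold. It was lost when any 1 of the 9 libraries other than aged replicate 1 was left out, with adjusted p of 0.0511 to 0.158 and a change that stayed between 0.94 and 1.17. With all libraries kept it was also lost with no filter on low values (adjusted p = 0.134, limma), FPKM as deposited (0.0531), only the 2 groups compared (0.0785) and the replicate number as a block (0.0708). Without aged replicate 2, the library with Ptx3, Inha, Fst and Tnfaip6, the change was 0.94 and the limma adjusted p 0.0579. Scaled to the 10 oocyte markers, which puts the median difference of all genes at -0.23 in place of -0.01, Zp3 was higher by 0.83 with an adjusted p of 0.0889, and the calls over all genes were 84 higher and 223 lower.

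Zp2 encodes the zona protein that ovastacin cleaves. Its level was 29.0, 41.7 and 41.7 scaled FPKM in young replicates 1, 2 and 3, and 40.1, 188 and 83.6 in aged replicates 1, 2 and 3. In the NMN group it was 36.8, 44.0 and 47.5. Aged replicates 2 and 3 lay above every young and NMN library, while aged replicate 1 lay within the young range. The aged mean was 104 ± 76.0 (SD, n = 3) and the young mean 37.5 ± 7.34 (SD, n = 3). The difference of 1.19 ± 0.44 (SE; 95% interval 0.22 to 2.17) on the log2 scale had the largest point estimate of the 6 genes but did not pass, with an adjusted p of 0.190 in limma and an unadjusted p of 0.0212. Without aged replicate 1 it was 1.73 with an adjusted p of 0.0391, and without aged replicate 2 it was 0.63 with an adjusted p of 0.314.

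Zp1 encodes the cross-linker of the filaments. Young replicates 1, 2 and 3 were at 81.3, 84.1 and 103 scaled FPKM, aged replicates at 61.7, 265 and 173, and NMN replicates at 79.7, 69.3 and 122. The aged libraries reached both below and above the young range, and the coefficient of variation was 61.0% in aged against 13.1% in young and 31.0% in NMN oocytes. The aged and young means were 166 ± 102 and 89.4 ± 11.7 (SD, n = 3 each). Zp1 did not pass the test, with a difference of 0.66 ± 0.44 (SE; 95% interval -0.32 to 1.65) and an adjusted p of 0.464 in limma. It was 0.22 (adjusted p = 0.826) without aged replicate 2 and 1.26 (adjusted p = 0.0593) without aged replicate 1.

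Astl, the gene of the ZP2-cleaving protease, was at 154, 158 and 174 scaled FPKM in young, 136, 226 and 321 in aged and 192, 235 and 222 in NMN replicates. The lowest and the highest of the 9 values were both from aged libraries. The means were 162 ± 10.5, 228 ± 92.5 and 216 ± 22.2 (SD, n = 3 each), and the difference of aged from young, 0.41 ± 0.27 (SE; 95% interval -0.19 to 1.01), did not pass (limma adjusted p = 0.460). It was 0.12 without aged replicate 3 and 0.73 without aged replicate 1.

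Izumo1r, the gene of the sperm receptor JUNO, varied least over the 9 libraries, by 1.71-fold from lowest to highest. Its values were 34.4, 29.9 and 37.1 scaled FPKM in young, 31.5, 51.1 and 36.3 in aged and 38.4, 32.2 and 33.0 in NMN replicates. The 3 groups overlapped, and aged replicate 2 stood above the rest. The difference of aged from young was 0.20 ± 0.20 (SE; 95% interval -0.25 to 0.65; limma adjusted p = 0.647), an interval that leaves room for a rise of up to 1.57-fold. It was 0.0062 without aged replicate 2, 0.12 without young replicate 2 and 0.35 without aged replicate 1.

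Cd9, the gene of the tetraspanin that mouse eggs need for fusion with sperm, was at 8.98, 7.88 and 5.55 scaled FPKM in young, 3.46, 15.6 and 11.7 in aged and 6.38, 6.18 and 7.46 in NMN replicates. The aged libraries again lay on both sides of the young ones. The difference of aged from young was 0.23 ± 0.41 (SE; 95% interval -0.68 to 1.14; limma adjusted p = 0.806), and it was -0.15 without aged replicate 2 and 0.80 without aged replicate 1. Cd81, the related tetraspanin, was at 0.062, 0.143 and 0.684 in young, 0.504, 0.876 and 0.250 in aged and 0.258, 0.038 and 0.611 in NMN replicates. In 2 libraries it lay under the level of 3 reads (0.102 to 0.120 FPKM), and groups overlapped in each comparison. A two-sided exact permutation test gave p = 0.4 between aged and young, 0.5 between NMN and aged and 1 between NMN and young oocytes, where 3 libraries against 3 cannot give less than 0.1. Annotated genes overlap Cd9 (Gm28809 and Gm26728) and Cd81 (R74862), and whether counting used strand is not given in the sources used here.

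**Figure D2:**
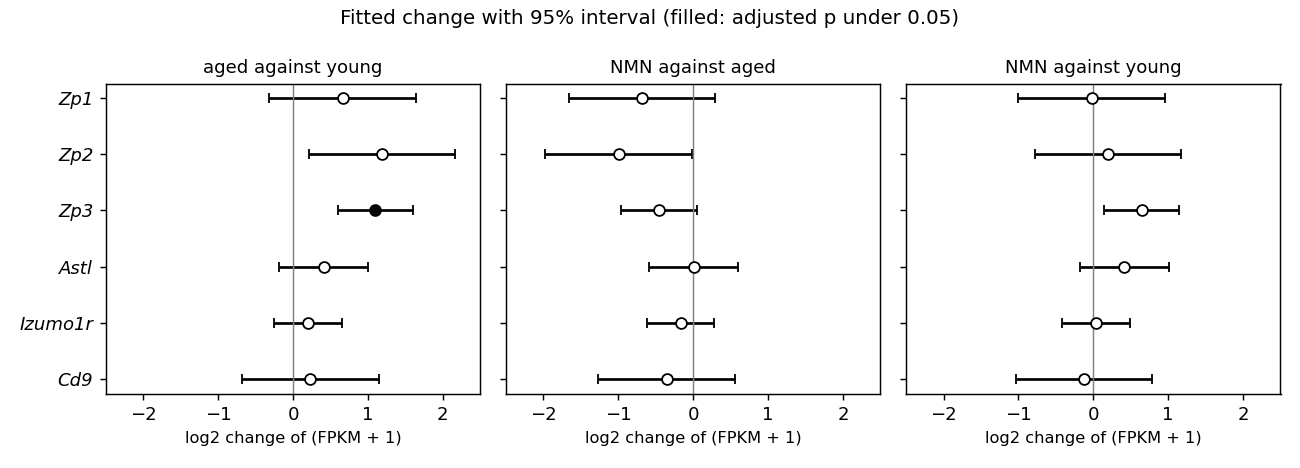
Difference between groups on the log2(FPKM + 1) scale (horizontal axis) for the 6 tested genes in each of the 3 comparisons, with 95% intervals from limma. Filled points have an adjusted p under 0.05, and Zp3 in aged against young oocytes, at 1.10, is the filled one.

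Read together for aged against young, 1 of the 6 tested genes was called, beside 2.17% of all genes, and 2 had an unadjusted p under 0.05, as did 1665 of the 9168 genes. In all 6 the aged mean was higher, though scaled to the oocyte markers the differences of Izumo1r (-0.07) and Cd9 (-0.005) turned sign. The median difference was 0.54, beside -0.01 over all genes tested. The 3 comparisons share groups, so their values are given side by side and not as separate support.

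Within the aged group, replicate 2 was compared with replicates 1 and 3. It was the highest of all 9 libraries for Zp1, Zp2, Zp3, Izumo1r and Cd9, 5 of the 6 tested genes, where 24.7% of all genes tested had their highest value in that library. It exceeded both other aged libraries by at least 1.5 times for Zp1 (4.29 times replicate 1 and 1.53 times replicate 3) and Zp2 (4.69 and 2.25 times), 2 of 6 genes against 18.6% of all genes. For Zp3 the ratios were 1.79 and 1.10, for Cd9 4.50 and 1.33, and for Izumo1r 1.62 and 1.41. Over all genes the median ratios were 1.01 and 1.01. Astl differed from this order, since replicate 2 was 1.65 times replicate 1 but 0.702 times replicate 3.

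Aged replicate 1 stood at the other end. It was the lowest aged library for all 6 tested genes, against 29.6% of all genes tested. For Zp1, Astl and Cd9, 3 of the 6, the aged values enclosed the whole young range, as they did for 21.2% of all genes. These are single libraries, so the differences among them have no replicate check. The same library with the highest zona transcripts, aged replicate 2, also held Ptx3, Inha, Fst and Tnfaip6. Its oocyte marker sum of 13963 was the lowest of the aged group (up to 14569) but above every young one (up to 13092). In FPKM as deposited it was the highest of the aged group. By gene, Gdf9, Bmp15, Nlrp5 and Padi6 were lowest of the aged group there, and H1foo, Ooep, Dppa3 and Npm2 highest. The part of the cumulus transcripts or of the oocyte markers in these values was not tested. Aged replicate 3, with Zp3 at 284, Zp1 at 173 and Zp2 at 83.6, also exceeded every young library for these genes.

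**Figure D3:**
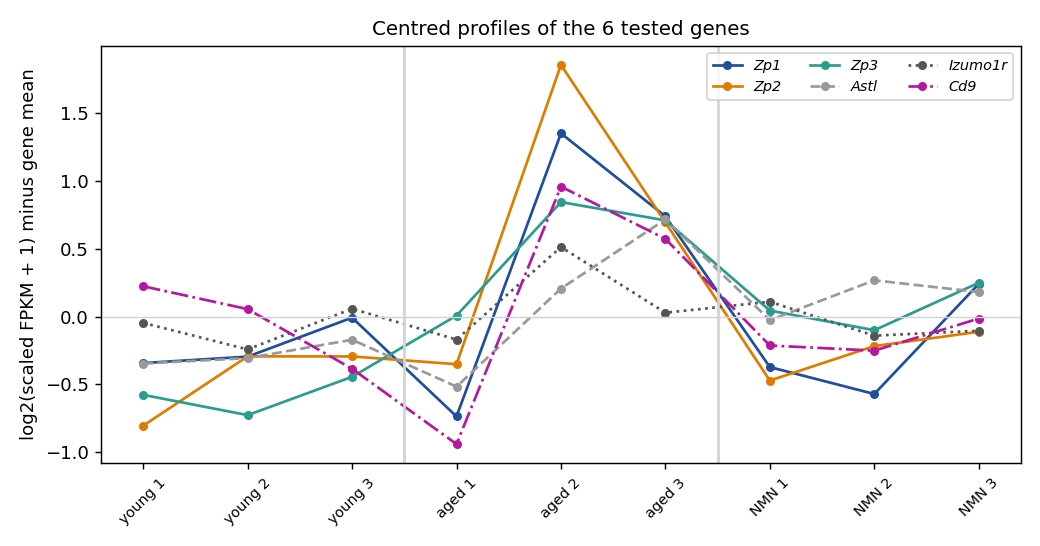
Profile of each tested gene over the 9 libraries, as log2(scaled FPKM + 1) minus the gene's own mean (vertical axis). Lines only join the points of 1 gene and imply no order of replicates. Among the aged points, replicate 1 is the lowest for each gene, and replicate 2 or 3 the highest.

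The 3 zona mRNAs were also summed, since their proteins are assembled into 1 coat. The sum was 226, 230.3 and 272 scaled FPKM in young, 276, 764 and 540.2 in aged and 295, 275 and 376 in NMN replicates. Every aged library exceeded every young one, by 276 against 272 for the nearest pair, but scaled to the oocyte markers aged replicate 1, at 249.97, lay inside the young range of 226 to 333. Group means were 243 ± 25.2, 527 ± 244 and 315 ± 53.3 (SD, n = 3 each). No p is given for a sum over chosen genes. The composition differed among the aged libraries more than among the young ones. Zp3 made up 51.2, 45.4 and 46.8% of the sum in young replicates, 63.1, 40.8 and 52.5% in aged replicates and 60.6, 58.8 and 54.8% in NMN replicates. The 3 NMN shares all lay above the 3 young ones, and the aged shares spanned both. The Zp1 share was 35.9 to 37.8% in young, 22.4 to 34.6% in aged and 25.2 to 32.5% in NMN libraries. Every aged and NMN library thus had a lower Zp1 share than every young one, by 34.6 against 35.9% for the nearest pair. No share over other genes is available beside these separations. The Zp2 share overlapped between groups, at 12.8 to 18.1% in young, 14.5 to 24.6% in aged and 12.5 to 16.0% in NMN libraries. The ratio of Zp3 to Zp1 was 1.24 to 1.43 in young, 1.18 to 2.82 in aged and 1.69 to 2.33 in NMN libraries. The ratios of Zp3 to Zp2 and of Zp1 to Zp2 overlapped between each pair of groups.

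**Figure D4:**
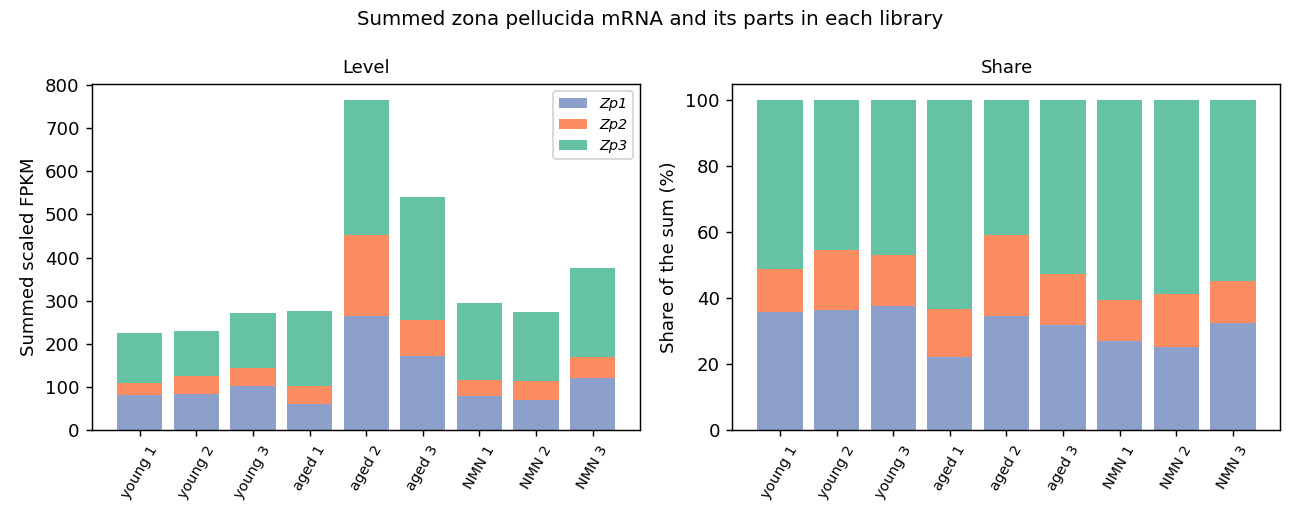
Left, summed scaled FPKM of Zp1, Zp2 and Zp3 in each library (vertical axis, starting at 0), and right, the share of each in the sum in percent. The tallest bars are aged replicates 2 and 3, at 764 and 540.2, and Zp3 has its largest share, 63.1%, in aged replicate 1.

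In NMN oocytes the zona transcripts lay below the aged means, but none of these genes passed the test against either other group. The median difference of the 6 tested genes from aged oocytes was -0.41. It was -0.42 for the 10 oocyte markers, 9 of which were lower in NMN oocytes. Scaled to those markers, Zp2, Zp1 and Zp3 differed from aged oocytes by -0.88, -0.56 and -0.33. Against aged oocytes, Zp2 was lower by a fitted difference of -0.998 ± 0.44 (SE; 95% interval -1.97 to -0.02; limma adjusted p = 0.439, unadjusted p = 0.0459), with an NMN mean of 42.8 ± 5.45 (SD, n = 3). Zp1 differed by -0.68 ± 0.44 (SE; adjusted p = 0.594 in limma) and Zp3 by -0.45 ± 0.23 (SE; adjusted p = 0.493 in limma). In each of them, the NMN values overlapped the aged range, with aged replicate 1 below the NMN range for Zp1 and inside it for Zp2 and Zp3. The differences of Cd9 and Izumo1r were -0.36 and -0.17, and that of Astl was 0.01, with limma adjusted p of 0.790, 0.800 and 0.997. By limma, 0 of the 6 genes were called and 1 had an unadjusted p under 0.05, where 0.218% of all genes (20; 11 higher and 9 lower in NMN oocytes) were called and 1026 of 9168 had an unadjusted p under 0.05. The groups did not overlap for 0 of the 6 genes and for 15.7% of all genes. Without aged replicate 2, Zp2 differed by -0.44, Zp1 by -0.24 and Zp3 by -0.29, with limma adjusted p of 0.493, 0.792 and 0.537. Without aged replicate 1 the differences were -1.54, -1.28 and -0.71, with limma adjusted p of 0.141, 0.157 and 0.219.

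Against young oocytes, Zp3 in NMN oocytes had a mean of 182 ± 22.4 (SD, n = 3) and stood above all 3 young libraries, with a fitted difference of 0.65 ± 0.23 (SE; 95% interval 0.14 to 1.15). It did not pass the test (limma adjusted p = 0.475, unadjusted p = 0.0171). Astl in NMN oocytes likewise stood above all 3 young libraries, by 0.41 ± 0.27 (SE; 95% interval -0.18 to 1.01; limma adjusted p = 0.733). These were 2 of 6 genes without overlap, beside 16.6% of all genes. Zp2, Izumo1r, Zp1 and Cd9 differed by 0.20, 0.03, -0.02 and -0.12, with limma adjusted p of 0.907 to 0.993, and the interval for Zp1 ran from 0.50-fold to 1.95-fold. By limma, 0 of the 6 genes were called and 1 had an unadjusted p under 0.05, where 0.0764% of all genes (7; 6 higher and 1 lower) were called and 756 of 9168 had an unadjusted p under 0.05. With the replicate number as a block, 1 gene of all and 0 of these 6 were called.

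From lowest to highest the groups were ordered young, NMN, aged for Zp2, Zp3 and Izumo1r, both by mean FPKM and on the log2 scale. Zp1 and Astl had this order by mean FPKM, but on the log2 scale NMN differed by -0.02 from young for Zp1 and by 0.01 from aged for Astl. Cd9 had the order NMN, young, aged. For Zp3 the ends, young and aged, differed by the test, and NMN did not differ by it from either neighbour. For the other 5 genes no pair of groups differed by the test.

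The genes whose profiles over the 9 libraries were nearest to each member were found by the root-mean-square difference of centred log2 values, among 2976 genes with a mean of at least 10 FPKM. Zp2 was the nearest gene to Zp1 and Zp1 the nearest to Zp2, at 0.33. For Zp1, Mnd1 and Golga5 followed, and for Zp2, Cfl1 and Calm2. Without aged replicate 2, Zp2 ranked 2nd for Zp1, whereas Zp1, Cfl1 and Calm2 ranked 59th, 500th and 938th for Zp2. Their distances from Zp2 changed little, from 0.33, 0.38 and 0.40 to 0.29, 0.38 and 0.42. The ranks for Zp2 thus rest on that library, while the distances do not. Cd9 was nearest to Abhd17b at 0.29, Arid4a at 0.30 and Zp1 at 0.33. The profile of Zp3 was nearest to Paqr6 and Psma5, both at 0.22, and Fam184a at 0.23, and 364 genes were nearer to it than Zp2 (47 without aged replicate 2). Pak7, Aaas and Scml2, each at 0.22, were nearest to Astl. Izumo1r, which varied least from lowest to highest library, was nearest to Kif5c at 0.06, Elp5 at 0.10 and Dbf4 at 0.11. Without aged replicate 2, the genes named for Zp3, Astl, Izumo1r and Cd9 ranked between 1st and 22nd, and Mnd1 and Golga5 ranked 23rd and 49th for Zp1. These distances describe 9 libraries that share groups and processing.

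Other genes of the same biology were taken from 8 lists, which were chosen with earlier results of these data known. Vamp3 stood out by size. It encodes a vesicle SNARE protein, of the family that drives vesicle fusion with the plasma membrane, and belongs to the list for exocytosis of the cortical granules. Its level was 24.7, 29.2 and 30.3 scaled FPKM in young, 7.47, 7.39 and 9.17 in aged and 36.1, 31.6 and 34.6 in NMN replicates. No aged library came near a young or NMN one. Vamp3 fell by 1.69 ± 0.17 (SE) on the log2 scale from young to aged (limma adjusted p = 0.00256) and was higher by 1.96 ± 0.17 (SE) in NMN than in aged oocytes (limma adjusted p = 0.00211). Both calls stood with each library left out in turn, with adjusted p up to 0.0305 and 0.0212.

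Of 32 genes of the exocytosis list 16 were tested, and in aged against young oocytes 0 rose and 1 fell (Vamp3), with a median of 0.02 beside -0.01 over all genes. In NMN against aged oocytes 1 rose (Vamp3) and 0 fell, where 0.218% of all genes were called. In NMN against young oocytes none of the 16 was called, and 2 had an unadjusted p under 0.05, beside the 756 of 9168 given above. The smallest p belonged to Rph3a (12.3 in young, 17.4 in NMN; limma adjusted p = 0.571) and Napa (0.919 and 1.74; 0.576).

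Among 24 other tetraspanins 8 were tested, with a list median of 0.04 in aged against young oocytes. Beside 2.17% of all genes called, 0 tetraspanins rose and 1 fell. The one that fell was Tspan13, at 18.7, 22.3 and 21.4 scaled FPKM in young, 6.33, 7.99 and 10.7 in aged and 9.52, 8.40 and 16.3 in NMN replicates. Its aged and NMN libraries all lay below the young ones, and the change from young to aged was -1.25 ± 0.26 (SE; limma adjusted p = 0.0412). Groups of 3 did not overlap for 23.9% of all genes in aged and 16.6% in NMN against young oocytes. In the NMN comparisons no tetraspanin was called. Tspan12 was at 5.84 ± 1.22 in aged and 1.94 ± 1.30 in NMN oocytes (SD, n = 3 each; limma adjusted p = 0.141). Of 11 partners of CD9 and CD81 in the egg membrane 5 were tested, with a list median of 0.04. Beside the same 2.17% of all genes, 0 rose and 1 fell in aged oocytes. It was Itgb1, the integrin beta 1 subunit, at 21.8, 21.2 and 20.4 in young, 10.6, 10.2 and 13.5 in aged and 15.1, 13.1 and 16.2 in NMN replicates. Young libraries were above all others, and Itgb1 fell by 0.84 ± 0.17 (SE; limma adjusted p = 0.0392) from young to aged. Against NMN oocytes it was not called in either direction (limma adjusted p = 0.490 against aged, 0.482 against young), and Itga9 and Itga6, integrin alpha subunits, had adjusted p of 0.675 (NMN against aged) and 0.761 (NMN against young).

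The calls on Tspan13 and Itgb1 were near the threshold. Tspan13 was lost without any 1 library other than NMN replicates 2 and 3 (adjusted p up to 0.156), and Itgb1 without any 1 of the 9 (0.0511 to 0.145). With all libraries kept, Tspan13 and Itgb1 were also lost with the replicate number as a block (adjusted p = 0.0532 and 0.0788, limma), with FPKM as deposited (0.0538 and 0.0533) and with no filter on low values (0.142 and 0.118), and Itgb1 with only the 2 groups compared (0.0785).

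**Figure D5:**
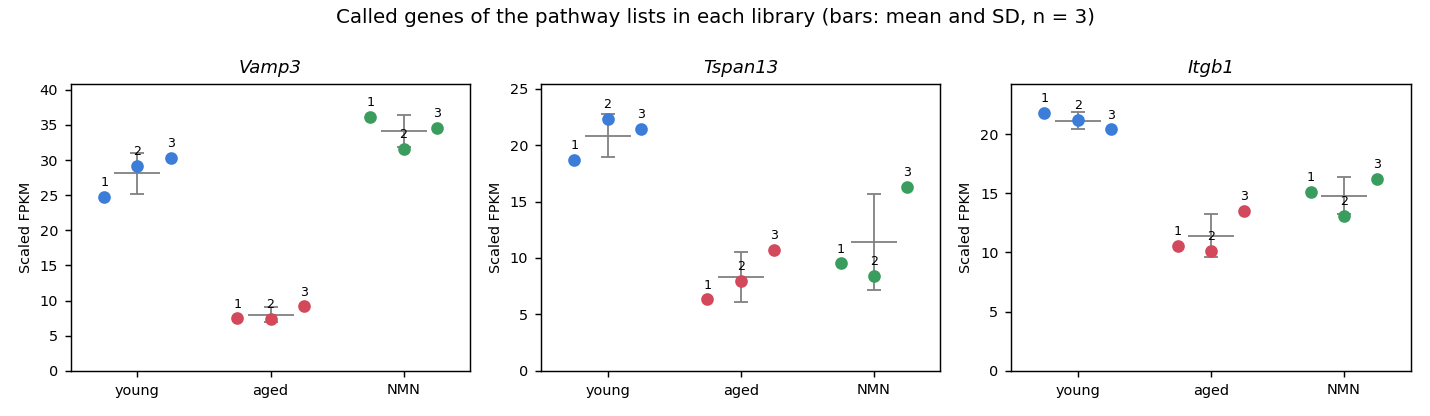
Level in scaled FPKM (vertical axis) of Vamp3, Tspan13 and Itgb1, genes of the fusion and exocytosis lists that passed the test in aged against young oocytes. Points are libraries numbered by replicate, and bars are the mean and SD of 3. Vamp3 lies at 7.39 to 9.17 in aged libraries and at 24.7 or higher in all others.

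The remaining lists held no call in any of the 3 comparisons. Over the lists with a tested gene, medians were -0.18 to 0.23 in NMN against aged and -0.10 to 0.42 in NMN against young oocytes, beside 0.00 and 0.01 over all genes. Of 9 transcription regulators of zona genes 6 were tested, with a list median of -0.13 in aged against young oocytes. Tcf3, a partner of FIGLA, was at 13.4 ± 4.74 in young, 8.42 ± 0.736 in aged and 13.6 ± 1.62 in NMN oocytes (SD, n = 3 each), with limma adjusted p of 0.233 between young and aged oocytes and 0.371 between aged and NMN ones. Nobox, an oocyte homeobox factor, was at 31.1 ± 4.97, 41.5 ± 4.83 and 37.5 ± 1.29 (adjusted p = 0.242 for aged and 0.723 for NMN against young oocytes, by limma). Sohlh2, a germ-cell factor, had adjusted p of 0.612 (NMN against aged) and 0.798 (NMN against young). Figla itself was at 0 to 0.847 in young, 0.145 to 1.15 in aged and 0.342 to 0.589 in NMN libraries and was not tested.

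Of 15 genes for processing and glycosylation of zona proteins 7 were tested, with a median of -0.05. Mgat1, which starts complex N-glycans, was at 6.52 ± 1.40 in young, 2.70 ± 1.32 in aged and 3.96 ± 1.01 in NMN oocytes (limma adjusted p = 0.0922 between young and aged, 0.577 between aged and NMN, and 0.637 between young and NMN). C1galt1c1, the chaperone of the enzyme that makes core O-glycans, was at 31.3 ± 5.98 in aged and 18.1 ± 1.45 in NMN oocytes (SD, n = 3 each), with a difference of aged from young of 0.63 ± 0.22 (SE; adjusted p = 0.163 between young and aged and 0.231 between aged and NMN, by limma). Furin, a proprotein convertase, was at 5.78 in young and 7.48 in NMN oocytes (adjusted p = 0.787 by limma). Of 6 genes for astacin proteases and fetuin-B 2 were tested, with a median of 0.20. Fetub, whose product inhibits ovastacin, was at 1.81 ± 0.347 in young, 4.35 ± 2.11 in aged and 4.18 ± 0.620 in NMN oocytes (SD, n = 3 each). Its aged and NMN libraries all lay above the young ones, beside 23.9% and 16.6% of all genes without overlap in these comparisons. The limma adjusted p of Fetub was 0.139 for aged and 0.395 for NMN against young oocytes, and 0.987 between NMN and aged ones. Tll1, an astacin protease of the tolloid type, had adjusted p of 0.441, 0.976 and 0.616 in the same order.

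All 5 genes of other proteins that oocytes secrete were tested, with a median of 0.36 in aged against young oocytes, beside 0.36 for the 10 oocyte markers. Gdf9 and Bmp15 are in both lists, so the medians are not separate. Of the 10 oocyte markers, 9 had a higher aged mean and none was called. Oosp2 was at 11.5 ± 3.63 in young, 23.6 ± 7.33 in aged and 20.7 ± 6.73 in NMN oocytes (limma adjusted p = 0.155 for aged and 0.561 for NMN against young oocytes). Oosp3 was at 254 ± 67.8, 360 ± 112 and 274 ± 71.3 (adjusted p = 0.408 between young and aged and 0.668 between aged and NMN, by limma). Bmp15, a growth factor for follicle cells, had an adjusted p of 0.708 for NMN against aged, and Oosp1 one of 0.834 for NMN against young. Of the 2 folate receptor relatives of JUNO in the list, Folr1 had a value and did not pass the filter on low values, and Folr2 was not analysed here.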

How the data were processed

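Polyadenylated RNA of mouse metaphase II oocytes was measured in 9 libraries, 3 per group, grouped by sample titles. The authors deposited 1 table of FPKM. It is named as raw counts, but its values are fractional. The tools were Bowtie2 2.2.5 and RSEM on build mm9, per the submitters' processing notes. The role of each and the annotation are not given in the sources used here. The design text names an Illumina platform and the sample descriptions an MGISEQ-2000. Of the gene identifiers, 99.83% matched a symbol in GENCODE M21, which is on a later build, so it served for names and transcript lengths only.

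A gene was kept (9168 were) if it reached 1 FPKM in 3 or more libraries. FPKM were divided by trimmed-mean factors (30% of ratios and 5% of levels trimmed) and tested as log2(FPKM + 1) in 1 limma fit of all 9 libraries (limma 3.58.1, R 4.3.3; with moderation by trend and robust). Calls had a Benjamini-Hochberg adjusted p under 0.05, adjusted over all 9168. This scale understates changes of low genes. The steps were run on simulated data with independent noise and 1 spread per gene in all libraries. The libraries here differ in noise, so that run checks the steps only and is not used as support. Depth came from low values of 2659 genes, of which 96.6 to 97.8% were whole reads within 0.02 reads. Estimated reads per gene assume the longest coding transcript, and the level of 3 reads covers counting error only. Libraries of 1 group differed by more than counting noise (chi-square per degree of freedom 16.05 to 114.6), so none was counted as a library deposited again. This does not tell separate amplifications of 1 sample from separate samples.

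Deviations of same-numbered libraries from their group means had correlations of 0.497, 0.119 and 0.143 between NMN and young libraries. The correlations were -0.338, -0.265 and 0.315 between aged and young libraries and -0.372, -0.356 and 0.202 between aged and NMN ones. Differently numbered libraries were not compared, so no pairing can be read from these values. The labels tie the numbers to no animal or day. From each list, called genes are named and, where a comparison had none, the 2 tested genes with the smallest p. In the exocytosis list, 1 gene is not reported here and is left out of the list's counts. The 3 nearest profiles are named per gene. The 7 genes and the lists were chosen with earlier results of these data known. Alternatives covered pseudocount, filter, scaling, moderation, library weights, a replicate block, and each library left out. Scaling to the oocyte markers was chosen after seeing the data.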

Additional observations from a re-analysis of the deposited data

How the results depend on the processing

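For the 6 tested genes, 324 of 357 alternative values kept both direction and side of the threshold. Only Zp3 in aged against young oocytes was called in the main fit, so for the rest staying uncalled says little. That call on Zp3 stood under 6 of the 11 settings that keep all libraries and under 1 of the 9 that leave out a library. With a replicate block, no filter on low values, FPKM as deposited, only the 2 groups compared, or scaling to the oocyte markers, the count of the 7 genes called was 0, and with single libraries left out it was 0 to 2. The cause was not tested.

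The number of all genes called in aged against young oocytes, 199, was 29 with no filter, 102 with a minimum of 10 FPKM, 129 with only the 2 groups compared, 893 with library quality weights, 63 with the replicate block and 307 when scaled to the oocyte markers. With single libraries left out it was 29 to 215: 40, 33 and 29 without young replicates 1, 2 and 3, 30 without aged replicate 3 and 103 without NMN replicate 3. For NMN against aged oocytes, 20 calls became 13 and 12 with pseudocounts of 0.1 and 5 FPKM, 9 with no filter, 4 with a minimum of 10 FPKM, 7 with only the 2 groups compared and 148 with quality weights. Left-out libraries gave 5 to 26: 8 and 5 without aged replicates 1 and 3, and 11 without NMN replicate 1. For NMN against young oocytes, 7 calls became 1 with a pseudocount of 5, with no filter, with a minimum of 10 FPKM and with the replicate block, 3 as deposited (2 higher and 1 lower), 16 with only the 2 groups compared and 71 with quality weights. Left-out libraries gave 1 to 14: 14 and 13 without aged replicate 2 and NMN replicate 3, 3 without NMN replicate 2 and 1 without any of the others. Smaller tables and fewer libraries change the number of tests and the spread; beyond that the cause was not tested.

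Differences near 0 changed sign. In aged against young oocytes, scaling to the oocyte markers gave -0.065 for Izumo1r and -0.0050 for Cd9, and left-out libraries gave Cd9 -0.15 to 0.80. In NMN against aged oocytes, quality weights gave Astl -0.0901, and left-out libraries gave Astl -0.32 to 0.30, Izumo1r -0.32 to 0.025 and Cd9 -0.92 to 0.024. In NMN against young oocytes, Zp1 was 0.026 as deposited and 0.14 with quality weights, Cd9 0.016 with quality weights and Izumo1r -0.11 scaled to the oocyte markers. Left-out libraries gave Zp1 -0.26 to 0.15, Cd9 -0.30 to 0.0052 and Izumo1r -0.051 to 0.099. Cd81 had 1 to 23 estimated reads per library, and its permutation test could not give a p under 0.1, so no difference could be called.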
